A study of Mus musculus with 6 samples.

Results

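The type I interferon response genes are the genes that cells switch on when interferon alpha or beta binds its receptor, together with the receptor itself. A list of 38 of them was followed in mouse KSL cells, the cKit+Sca1+Lin- population, which contains haematopoietic stem cells and multipotent progenitors. For each gene the array's probe set with exactly 1 gene symbol was used, or, of several, the brightest on average across the 6 arrays, which left 36 of the 38 genes among 19938 genes in all. Isg15 had a probe set that is annotated with several symbols, and Ifi44 had none under its own symbol, so both are not analysed here.

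The comparison was between 3 samples labelled DKO (Runx1fl/fl;Runx3fl/fl;Mx1-Cre+, Runx1;Runx3 double knockout) and 3 labelled WT (Runx1fl/fl;Runx3fl/fl;Mx1-Cre-, littermates). All mice had floxed alleles of both genes on a C57BL/6 background with at least 3 generations of backcrossing. Mx1-Cre drives a recombinase from the interferon-responsive Mx1 promoter, and pIpC, a double-stranded RNA mimic that makes the body produce interferon, turns it on. Per the labels' protocols, pIpC was given at 600 µg on 7 alternate days to mice aged 4 weeks, in text that does not separate the groups, while the sample descriptions call the cells untreated. Neither the age at collection nor the time since the last injection is stated, and any remaining response to pIpC was not tested. Each WT sample was pooled from 3 mice, pooling of the DKO samples is not stated, and the design text counts 6 mice, and the labels call the 3 replicates of each group biological. The transgene was present in 1 group only, which means that deletion and transgene cannot be told apart.

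Signals are log2 values from Affymetrix Mouse Gene 1.0 ST arrays, 1 value per gene and array, and differences are DKO minus WT on that scale. Runx1 signal, which averages probes along the transcript and cannot check the loss of single exons, was 9.22, 9.37 and 9.28 in DKO, against 8.49, 8.53 and 8.38 in WT, and Runx3 signal was 7.40, 7.40 and 7.34 in DKO, against 7.53, 7.59 and 7.47 in WT. In the limma fit Runx1 was higher in DKO (difference 0.82, adjusted p = 0.000427), and Runx3 did not pass (-0.15, adjusted p = 0.253). These signals do not show the deletion of either gene. The direction given below is therefore that of the labels. Over all genes the correlation between arrays was 0.993 to 0.995 within DKO, 0.989 to 0.991 within WT and 0.976 to 0.98 between the groups. The median difference over all genes was -0.04.

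Interferon alpha and beta bind a receptor made of the chains Ifnar1 and Ifnar2, whose kinases Jak1 and Tyk2 phosphorylate Stat2. Stat2 works with Irf9 in a complex that binds a DNA sequence called the interferon-stimulated response element, or ISRE, in front of the response genes. The products block viral entry, bind or destroy viral RNA, and attach the ubiquitin-like protein Isg15 to other proteins. In haematopoietic stem cells, interferon and pIpC are known to drive quiescent cells into division, and mouse stem cells are known to keep some response genes on without infection.

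The ISRE carries the core letters GAAA, then any 2 bases, then GAAA, and promoter sequences show which of the genes hold them close to their start. RefSeq promoters (GRCm38.p6, from 250 bases before to 50 bases after each listed start) were found for 28 of the 36 genes by symbol. The core, searched on both strands, was present for 10 of the 28 genes (35.7%), against 3.99% of 27025 genes with a promoter in the table. The whole promoter is shown for Ddx60, which had the largest rise, and for Bst2, 1 of the 2 genes that fell. Capitals mark the ISRE core on either strand, and each sequence reads 5′ to 3′ on the gene's own strand.
Ddx60 promoter (chr8:61927837-61928136, plus strand): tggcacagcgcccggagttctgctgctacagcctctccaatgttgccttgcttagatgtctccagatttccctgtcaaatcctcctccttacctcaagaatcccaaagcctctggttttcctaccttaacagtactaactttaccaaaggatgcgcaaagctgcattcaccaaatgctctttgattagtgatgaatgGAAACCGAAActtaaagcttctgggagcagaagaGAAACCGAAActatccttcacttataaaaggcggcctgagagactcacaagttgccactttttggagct
Bst2 promoter (chr8:71537423-71537722, minus strand): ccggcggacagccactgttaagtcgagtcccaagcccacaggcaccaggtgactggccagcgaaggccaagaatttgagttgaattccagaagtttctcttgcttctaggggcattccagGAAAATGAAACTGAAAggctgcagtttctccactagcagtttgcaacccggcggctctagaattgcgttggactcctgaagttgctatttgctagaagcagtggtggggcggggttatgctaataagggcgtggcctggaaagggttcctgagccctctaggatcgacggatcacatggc
Ddx60 had 2 cores, starting 53 and 19 bases before the gene start, and in Bst2 the 2 cores overlapped, starting 130 and 124 bases before it. Shorter windows, with 20 bases on each side of the cores, compare 2 further genes that rose, Trim30a and Ifit1, with 4 that did not pass the threshold.
Trim30a (chr7:104465200-104465249, minus strand): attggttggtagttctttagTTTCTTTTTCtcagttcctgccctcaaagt
Ifit1 (chr19:34640765-34640833, plus strand): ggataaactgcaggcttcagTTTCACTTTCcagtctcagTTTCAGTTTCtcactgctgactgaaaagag
Ifit3 (chr19:34583387-34583436, plus strand): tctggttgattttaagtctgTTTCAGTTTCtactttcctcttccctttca
Rsad2 (chr12:26456543-26456592, minus strand): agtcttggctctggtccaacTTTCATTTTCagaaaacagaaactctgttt
Stat2 (chr10:128270256-128270305, plus strand): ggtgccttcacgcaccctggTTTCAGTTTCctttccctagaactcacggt
Ifitm3 (chr7:141010696-141010762, minus strand): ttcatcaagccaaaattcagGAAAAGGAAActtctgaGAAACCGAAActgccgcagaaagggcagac
The window of Ifit3 shows the nearer of its 2 cores, and that of Trim30a belongs to 1 of its 2 listed starts. Trim21 and Ifitm2 also held the core.

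As a group, the interferon response genes were mostly higher in DKO. Of the 36 genes, 15 rose (41.7%) and 2 fell (5.56%) at an adjusted p under 0.05, whereas 9.71% of all 19938 genes rose and 7.69% fell. Over all genes these were 1936 rises and 1533 falls, and 2254 and 1121 with each array centred on its median, a setting in which 15 of the 36 rose and 2 fell as well. The other 19 did not pass. Without the dimmest 50% of genes, 14 of 32 genes on the list rose and 2 fell. Among all 9969 genes of that setting 1995 rose and 1269 fell, both larger shares than among all 19938. The median difference of the 36 genes was 0.25, and 30 of the 36 differences were above 0. All 3 DKO values lay above all 3 WT values for 16 genes (44.4%, against 16.2% of all genes) and below them for 2 (5.56%, against 19.6% of all genes).

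The rises were uneven in size. They ran from 1.28-fold for Cmpk2 to 2.24-fold for Ddx60, and 4 genes rose at least 2-fold: Ddx60, Trim30a, Samd9l and Xaf1. The 19 genes that did not pass had differences between -0.27 and 0.34 with adjusted p-values of 0.137 to 0.624, and 15 of them were above 0. For 16 of these 19 genes the 95% interval of the fit lay inside a 1.5-fold change in either direction, and for the other 3, Ifit3, Ifi27l2a and Rtp4, it reached beyond. The fall of Ifitm1 and that of Bst2 were the changes in the opposite direction. By role, the rises were 4 of 4 in the PARP group, 3 of 5 ubiquitin pathway genes, 2 of 4 nucleotide and RNA enzymes, 1 of 2 receptor chains, 4 of 9 genes placed in no family and 1 of 3 IFIT genes. The IFITM, Mx and transcription factor groups had 0 rises, and the roles were not tested against each other.

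**Figure D1:**
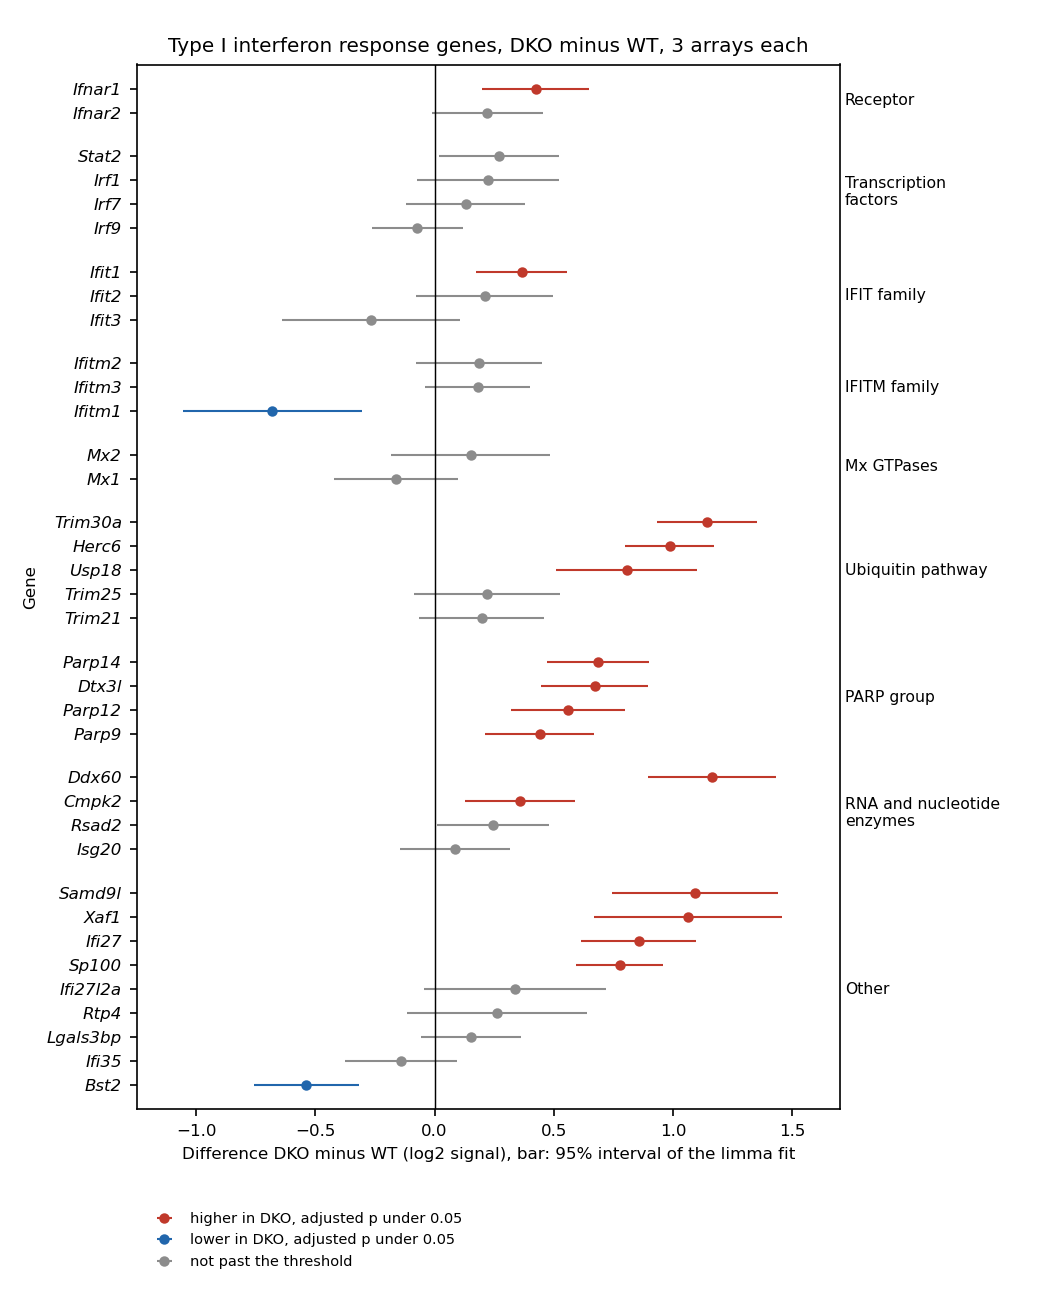
Difference DKO minus WT in log2 signal for the 36 interferon response genes, in role order, with the 95% interval of the limma fit over 3 arrays per group. Red points are genes that rose (15), blue points genes that fell (2) and grey points genes that did not pass, and Ddx60 lies farthest to the right with 1.16 and Ifitm1 farthest to the left with -0.68.

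Of the receptor chains, Ifnar1 rose and Ifnar2 did not pass. Ifnar1, the signalling chain that binds Tyk2, had 7.41, 7.65 and 7.65 in DKO, against 7.08, 7.24 and 7.11 in WT. The groups did not overlap, and the difference was 0.42 (SE 0.0997, adjusted p = 0.0175). The call was lost without DKO replicate 2 (adjusted p = 0.069), DKO replicate 3 (0.0742) or WT replicate 3 (0.0517). Ifnar2, the chain that binds Jak1, had 9.52, 9.48 and 9.60 in DKO, against 9.16, 9.50 and 9.28 in WT. WT replicate 2 lay inside the DKO range, and the difference of 0.22 did not pass (adjusted p = 0.182).

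None of the 4 transcription factors on the list passed the threshold, at unadjusted p-values of 0.0391 for Stat2, 0.126 for Irf1, 0.268 for Irf7 and 0.414 for Irf9. Stat2, a part of the ISRE-binding complex, had 7.10, 7.13 and 7.22 in DKO, against 7.12, 6.75 and 6.78 in WT. The group difference was 0.27 (adjusted p = 0.137), with WT replicate 1 inside the DKO range, and without that array it was 0.39 and passed (adjusted p = 0.0236). Irf9, which gives the complex its DNA contact, had 7.41, 7.30 and 7.45 in DKO, against 7.46, 7.46 and 7.45 in WT. Its WT values were nearly the same on the 3 arrays and lay within the upper part of the DKO range or just above it (difference -0.07, 95% interval -0.26 to 0.12). Irf7, which amplifies interferon production once induced, had 6.21, 6.35 and 6.33 in DKO, against 6.21, 6.33 and 5.95 in WT, and the groups overlapped (difference 0.13, 95% interval -0.12 to 0.38). Irf1, a factor induced by interferon gamma as well as by type I interferon, had 7.58, 7.16 and 7.54 in DKO, against 7.39, 7.09 and 7.14 in WT. DKO replicate 2 was low among its group, and the difference of 0.22 did not pass. The other Irf1 probe set, the more variable of the pair, gave 0.45 (adjusted p = 0.0694).

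**Figure D2:**
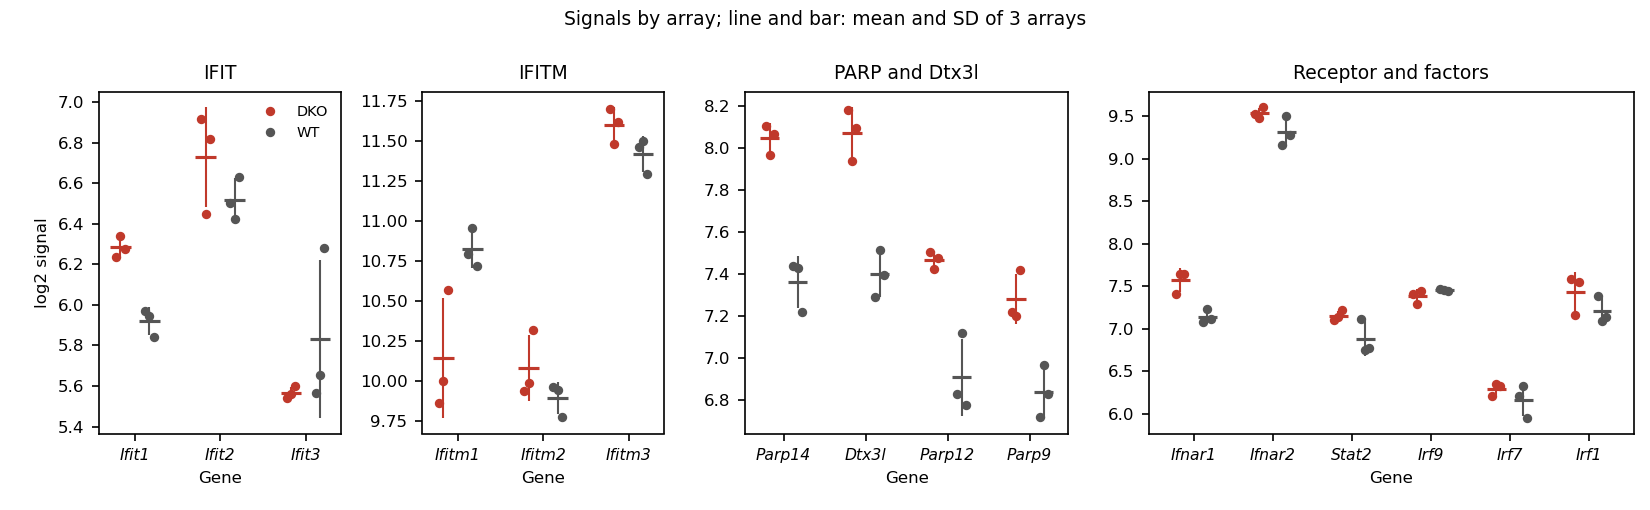
Signal (log2) on each array for the IFIT family, the IFITM family, the PARP group and the receptor chains and transcription factors, with DKO points left of WT points and the line and bar giving the mean and SD of 3 arrays. The panels have separate vertical axes, and DKO and WT points are apart for the 4 PARP group genes, Ifit1, Ifitm1 and Ifnar1.

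The 4 genes grouped here as PARP genes and their partner all rose, with no overlap between groups for any of them. Parp10 and Parp11, counted below among other effectors, did not pass, at -0.19 and 0.19 (adjusted p = 0.254 and 0.168). Parp9 and Dtx3l, an ADP-ribosyltransferase family protein and its ubiquitin ligase partner, work as a complex in the interferon response, and Parp14 and Parp12 attach single ADP-ribose units to proteins. Parp14 had 8.11, 7.97 and 8.07 in DKO, against 7.44, 7.43 and 7.22 in WT (difference 0.68, adjusted p = 0.00147). Dtx3l had 8.18, 7.94 and 8.10 in DKO, against 7.29, 7.51 and 7.40 in WT (difference 0.67, adjusted p = 0.00212). These rises were 1.61-fold and 1.59-fold. Parp12 had 7.51, 7.42 and 7.48 in DKO, against 6.83, 7.12 and 6.78 in WT, a rise of 0.56 (adjusted p = 0.00644), with WT replicate 2 the highest of its group. Parp9 had 7.22, 7.20 and 7.42 in DKO, against 6.72, 6.97 and 6.83 in WT, a rise of 0.44 (adjusted p = 0.0164) whose call was lost when DKO replicate 3 was left out (0.37, adjusted p = 0.0703). Parp14, Dtx3l and Parp9 neighbour each other in the RefSeq gene order of GRCm38.p6, with 0 protein-coding genes between Parp14 and Dtx3l and 0 between Dtx3l and Parp9, whereas Parp12 lies on another chromosome.

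Among the ubiquitin pathway genes, Trim30a, Herc6 and Usp18 rose, and Trim21 and Trim25 did not pass. Trim30a, a mouse TRIM protein that restrains Toll-like receptor signalling, had 10.33, 10.50 and 10.44 in DKO, against 9.33, 9.36 and 9.16 in WT. Every DKO array was well above every WT array, and the rise was 2.21-fold (difference 1.14, SE 0.0942, adjusted p = 0.000101). Herc6, the main ligase for Isg15 in the mouse, had 8.77, 8.80 and 8.72 in DKO, against 7.79, 7.82 and 7.72 in WT. These values were tight in each group, and the rise was 1.98-fold (difference 0.99, SE 0.0826, adjusted p = 0.000111). Usp18, the protease that removes Isg15 and also shuts down the receptor at Ifnar2, had 7.16, 7.21 and 7.23 in DKO, against 6.29, 6.71 and 6.18 in WT. Its DKO values were nearly equal and its WT values were spread, with WT replicate 2 highest (difference 0.80, adjusted p = 0.00328). Trim25, a ligase of the RNA sensor encoded by Ddx58, differed by 0.22 (adjusted p = 0.313), with WT replicates 1 and 2 at 8.15 and 8.16 close to the DKO values of 8.16 to 8.25 and WT replicate 3 at 7.65. Trim21, an intracellular antibody receptor, differed by 0.20 (adjusted p = 0.295).

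Of the RNA and nucleotide enzymes, Ddx60 and Cmpk2 rose, and Rsad2 and Isg20 did not pass. Ddx60, a helicase family protein that assists cytosolic RNA sensing, had 7.83, 7.99 and 8.06 in DKO, against 7.04, 6.64 and 6.72 in WT. The gap between the groups was wider than the range within either, and the rise was 2.24-fold (difference 1.16, SE 0.12, adjusted p = 0.000326). Cmpk2, a mitochondrial nucleotide kinase, had 5.27, 5.50 and 5.31 in DKO, against 5.11, 5.05 and 4.85 in WT (difference 0.36, adjusted p = 0.0407). Its call was the least stable of the 17, lost without DKO replicate 1, 2 or 3 (adjusted p = 0.0701, 0.14 and 0.0899), without WT replicate 2 or 3 (0.0604 and 0.121) and in the fit that blocks on replicate number (0.055). Rsad2, the neighbour of Cmpk2 in the gene order and the source of the antiviral enzyme viperin, differed by 0.24 (adjusted p = 0.147). The changes of these neighbours differed from each other by 0.11, within the spread of the arrays (exact permutation p = 0.5). Isg20, an exonuclease, differed by 0.09 (adjusted p = 0.624) and was at -0.01 without DKO replicate 1.

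Of the genes placed in no family, Samd9l, Xaf1, Ifi27 and Sp100 rose and Bst2 fell. Samd9l, an endosomal protein that dampens cytokine signalling and whose human counterpart is mutated in inherited marrow failure, had 9.19, 9.64 and 9.49 in DKO, against 8.66, 8.20 and 8.18 in WT. The 3 DKO values stood above the 3 WT values although both groups were spread (difference 1.09, SE 0.156, adjusted p = 0.00168). Xaf1, a binding partner of the apoptosis inhibitor XIAP, had 7.44, 7.60 and 7.63 in DKO, against 6.76, 6.70 and 6.02 in WT. Its WT spread came from WT replicate 3, and the rise was 1.06 (adjusted p = 0.00346) with all arrays and 0.83 (0.00211) without that one. Ifi27, a small mitochondrial protein, had 9.39, 9.33 and 9.59 in DKO, against 8.62, 8.69 and 8.42 in WT, a rise of 1.81-fold (difference 0.86, adjusted p = 0.000862). Sp100, a component of PML nuclear bodies, had 9.36, 9.33 and 9.28 in DKO, against 8.56, 8.52 and 8.57 in WT. Its SDs were 0.044 in DKO and 0.027 in WT, with the WT value the smallest WT SD among the 15 genes that rose, and the rise was 1.71-fold (difference 0.78, adjusted p = 0.000355).

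Bst2 and Ifitm1 went the other way. Bst2 encodes tetherin, which holds newly formed virus particles on the cell surface, and had 7.77, 7.63 and 7.90 in DKO, against 8.28, 8.25 and 8.39 in WT. Every DKO value was below every WT value, a difference of -0.54 (SE 0.0979, adjusted p = 0.00533) that passed in 17 of 17 alternative fits and was under 1.5-fold in size. Markers of plasmacytoid dendritic cells, which carry much Bst2, passed in 0 of 5 cases, while 9.71% of all genes rose and 7.69% fell. At those shares, 0 of 5 says little about such cells. Mean log2 signals over the list were 5.93 to 6.03 in DKO and 6.06 to 6.26 in WT. Ccr9 of that list was under the lower quartile of signals on each array. Among those 5, Cox6a2 and Tcf4 had all DKO values below all WT values at differences of -0.42 and -0.27 (adjusted p = 0.0653 and 0.165). Siglech, Ccr9 and Pacsin1 overlapped between groups at 0.03, 0.03 and -0.08, and the part of such cells in the fall of Bst2 was not tested. In bulk samples, fewer cells of a type and less RNA per cell cannot be told apart.

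In the IFITM family, whose membrane proteins hinder the entry of viruses into cells, Ifitm1 fell while Ifitm2 and Ifitm3 did not pass. Ifitm1 had 9.86, 9.9992 and 10.57 in DKO, against 10.79, 10.96 and 10.72 in WT. DKO replicate 3 was closest to the WT range but still below it (difference -0.68, SE 0.167, adjusted p = 0.0214). The call was lost without DKO replicate 1 (-0.54, adjusted p = 0.0799), DKO replicate 2 (-0.61, 0.0786) or WT replicate 2 (-0.61, 0.0596), and the mean of its 2 probe sets gave -0.80 (0.0108). Ifitm3 differed by 0.18 (adjusted p = 0.247) and Ifitm2 by 0.19 (adjusted p = 0.321), where another of the 3 probe sets of Ifitm2 gave -0.07. Within each array, Ifitm1 minus Ifitm3 was -1.83, -1.48 and -1.05 in DKO, against -0.67, -0.54 and -0.57 in WT. The changes of these direct neighbours differed by -0.86 with no overlap between groups. The exact permutation p was 0.1, the smallest that 3 against 3 arrays can give, and 0.175 adjusted over 7 pairs. All 7 pairs were chosen after their values were seen, so their permutation p-values are only a description. The family's genes are similar in sequence, so the share of each in its signal is uncertain.

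The IFIT genes, whose products bind foreign RNA and which are among the most strongly interferon-induced genes, showed a small rise in 1 of 3 cases. Ifit1 had 6.24, 6.34 and 6.28 in DKO, against 5.97, 5.94 and 5.84 in WT. The groups did not overlap, but the size was 1.29-fold (difference 0.36, adjusted p = 0.0171), and the call was lost without DKO replicate 2 (adjusted p = 0.0668), DKO replicate 3 (0.0567) or WT replicate 3 (0.0545). Ifit2 had 6.92, 6.45 and 6.82 in DKO, against 6.50, 6.42 and 6.63 in WT, with DKO replicate 2 inside the WT range (difference 0.21, adjusted p = 0.305). Ifit3 had 5.54, 5.56 and 5.5993 in DKO, against 5.57, 5.65 and 6.28 in WT. Its difference of -0.27 rested on WT replicate 3, the other WT arrays being level with DKO, and it did not pass (adjusted p = 0.318). Within each array, Ifit1 minus Ifit3 was higher in all 3 DKO arrays than in the WT arrays (0.72 and 0.09 on average, exact permutation p = 0.1, 0.175 adjusted over 7 pairs), and WT replicate 3 made the largest part of that gap. Signals of similar IFIT genes may not be fully separated.

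The Mx genes encode dynamin-like GTPases that trap virus components, and most laboratory mouse strains, C57BL/6 among them, carry a defective Mx1 gene. Mx1, whose promoter drives the transgene, had 4.73, 4.82 and 5.16 in DKO, against 5.06, 5.10 and 5.03 in WT. Its groups overlapped (difference -0.16, 95% interval -0.42 to 0.10, adjusted p = 0.387), and whether its probes see any transgene RNA was not tested. DKO replicates 1 and 2 were below the lower quartile of their arrays, which was 4.91 on both. Mx2 differed by 0.15 (adjusted p = 0.537) with DKO values of 4.89 to 5.47 and WT values of 4.95 to 5.23.

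The remaining genes that did not pass were Ifi27l2a (0.34, adjusted p = 0.212), Rtp4 (0.26, 0.333), Lgals3bp (0.15, 0.305) and Ifi35 (-0.14, 0.406). Ifi27l2a and Rtp4 were spread in the same way, with DKO replicate 3 highest at 8.25 and 9.14, and WT replicate 3 lowest at 7.37 and 8.27. Ifi27l2a is the neighbour and relative of Ifi27, and the change of Ifi27 exceeded that of Ifi27l2a by 0.52 with no overlap between groups (exact permutation p = 0.1, 0.175 adjusted over 7 pairs). Lgals3bp, a secreted glycoprotein, was the 1 gene of the 19 whose groups did not overlap.

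Across the 36 genes, arrays within a group also differed. The median gene signal, taken relative to each gene's mean over the 6 arrays, was 0.12, 0.12 and 0.20 on DKO replicates 1 to 3, against -0.12, -0.11 and -0.25 on WT replicates 1 to 3, while over all genes the same measure stayed between -0.02 and 0.02. WT replicate 3 had the lowest WT signal for 20 of the 36 genes, and DKO replicate 3 the highest DKO signal for 17. The array map shows this as the deepest blue in WT replicate 3 for Xaf1, while Ifit3 is highest on that array. The same WT array had the highest WT signals for 4 of the 5 neutrophil genes tested, among them S100a9 (7.997, against 6.28 and 6.74 on the other WT arrays), while Ngp was highest on WT replicate 1 (5.45, against 5.35 on WT replicate 3). Ltf was below the lower quartile in both groups, and the part of these genes in its lower interferon gene signals was not tested. Without WT replicate 3, 12 of the 36 genes rose and 2 fell. The median SD of a gene on the list was 0.12 in DKO and 0.128 in WT, and over all genes it was 0.0985 in DKO and 0.125 in WT.

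**Figure D3:**
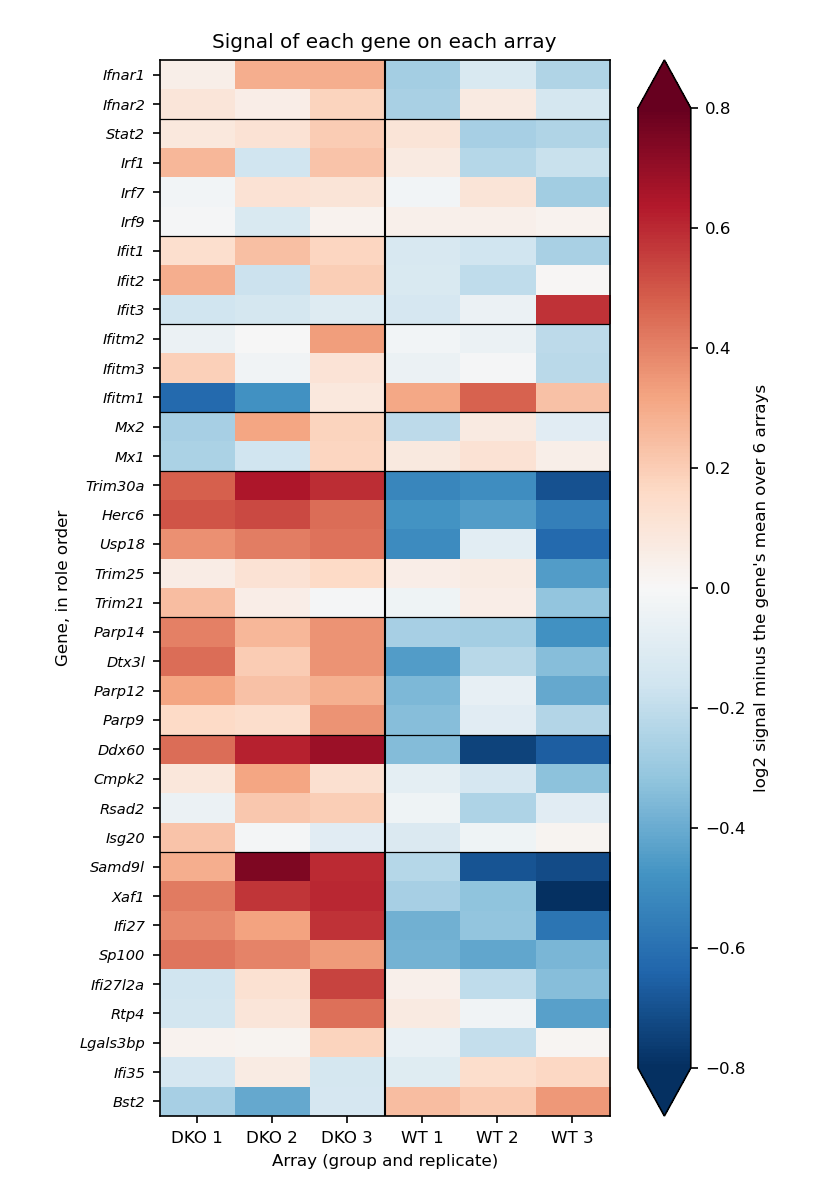
Signal of each of the 36 genes on each array, as log2 signal minus the gene's mean over the 6 arrays (colour, limits -0.8 and 0.8), with DKO arrays left of WT arrays and horizontal lines between roles. The 15 genes that rose are red in all 3 DKO columns and blue in all 3 WT columns, Bst2 shows the reverse, and for Ifitm1 DKO replicate 3 is near its mean.

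The ISRE core occurred among genes of each outcome. Among genes with a promoter in the table, it was found in 3 of 11 that rose (Ifit1, Trim30a and Ddx60), in 1 of 2 that fell (Bst2) and in 6 of 15 that did not pass. Usp18, Ifi27, Parp9 and Parp14, which rose, had no promoter in the table and were not searched. The same holds for Mx1, Mx2, Rtp4 and Ifi27l2a, which did not pass. The counts of the core are a description of the 300-base windows and were not tested against each other. The letters TTCNNNGAA, the palindromic core of the site called GAS, were found in 8 of 28 genes (28.6%, against 9.55% of all genes in the table), among them Bst2, Ifnar1 and Irf1. In Bst2 that site began 136 bases before the start and overlapped the first ISRE core. The Runx-binding letters TGTGGT, on either strand, were found in 3 of 28 genes (10.7%, against 18.9% of all genes), namely Cmpk2, Isg20 and Stat2. No other form of that site and no sequence outside the 300-base windows was searched, and the shares were not tested.

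Other genes of the interferon pathway were counted from lists that hold none of the 36. Of 83 such genes 74 were tested, with a median difference of 0.18. In all, 24 rose (32.4%, against 9.71% of all genes), 2 fell (2.7%, against 7.69%) and 48 did not pass. Without the dimmest 50% of genes 24 of 60 rose, against 1995 of 9969 genes. Without DKO replicate 1 the number that rose was 15. The rises were 15 of 39 other effectors, 2 of 4 RNA and DNA sensors, 2 of 4 other receptor chains, 2 of 4 kinases and STATs, and 1 each of 8 ligands, 6 brakes and 9 factors upstream of the ligand. The falls were 1 of the brakes and 1 of the upstream factors. These lists are small, and none was tested against the share of all genes.

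**Figure D4:**
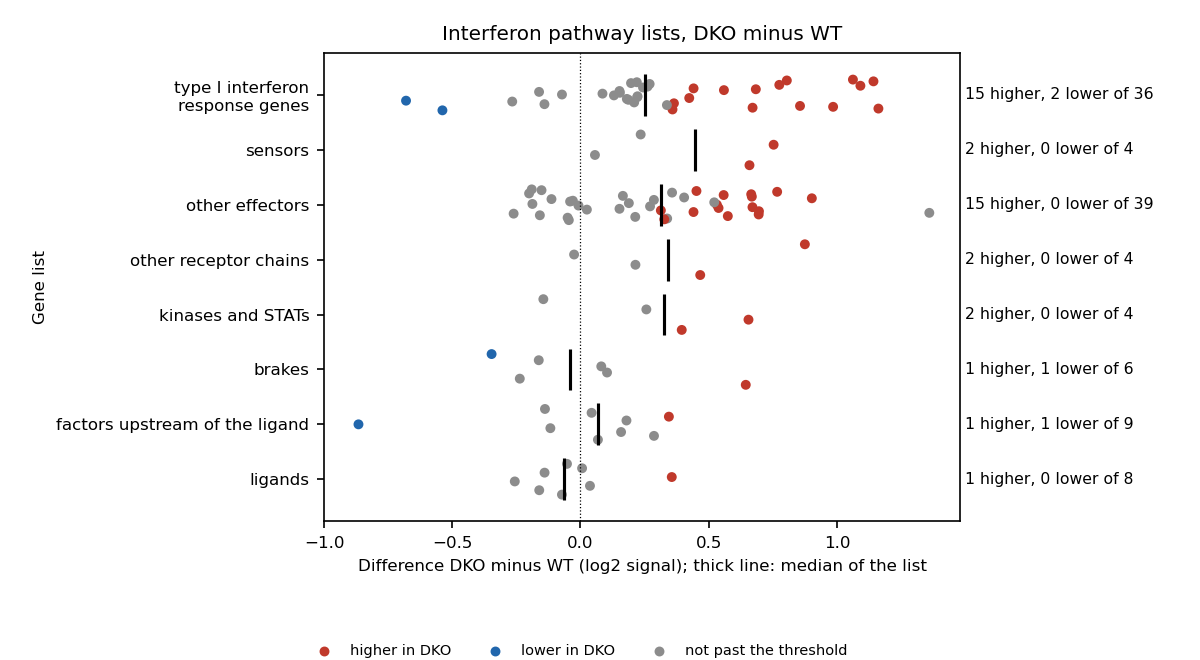
Difference DKO minus WT in log2 signal for each gene of the interferon response list (top row, 36 genes) and of 7 other pathway lists, with the median of each list as a thick line. Red points rose, blue points fell and grey points did not pass, and the counts at the right give 15 rises among the 36 response genes and 15 among the 39 other effectors.

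Upstream of the receptor, 5 of the 8 interferon genes tested were below the lower quartile of signals in both groups. The other 3 were Ifna5, Ifna2 and Ifng, which differed by -0.26, -0.16 and 0.01 (adjusted p = 0.113, 0.281 and 0.977). Ifnb1 was the 1 ligand of 8 that passed, with 4.71, 4.89 and 4.73 in DKO, against 4.36, 4.41 and 4.50 in WT, each below the lower quartile of its own array. Its difference was 0.36 (adjusted p = 0.0255), and the call was lost without any of DKO replicates 1, 2 and 3 (adjusted p = 0.0551, 0.096 and 0.0616) and without WT replicate 1 or 2 (0.0615 and 0.0544). Tbk1, a kinase that activates interferon production, rose by 0.34 (adjusted p = 0.0232), but the call was lost in 8 of 17 alternatives, with 0.17 (0.244) once the trend of differences over signal and gene span was removed. Irf8, a factor of monocyte and dendritic cell development, had 6.21, 5.94 and 6.22 in DKO, against 6.79, 6.97 and 7.20 in WT. It fell by 0.87 on the log2 scale (adjusted p = 0.00173), with no overlap between groups.

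Of the kinases of the Ifnar1 and Ifnar2 receptor, Jak1 rose by 0.39 (adjusted p = 0.0177) and Tyk2 differed by -0.14 (adjusted p = 0.287). Jak2, which is not among the kinases named above for that receptor, rose by 0.66 (adjusted p = 0.00422). Jak1 was at 0.07 (adjusted p = 0.699) with the trend over signal and gene span removed, and its call was also lost with quantile normalisation (0.0779), cyclic loess (0.0929) and without DKO replicate 1 (0.0534), DKO replicate 2 (0.0709) or WT replicate 3 (0.0569), while Jak2 was at 0.42 with the trend removed and passed in 17 of 17 alternative fits. Among other receptor chains, Il10rb, a chain of the lambda interferon receptor, rose by 0.88 (adjusted p = 0.00168), and Ifngr1, a chain of the interferon gamma receptor, by 0.47 (adjusted p = 0.00693, and 0.069 at 0.29 with quantile normalisation). Of the brakes, Pias1 rose by 0.64 (adjusted p = 0.00223). Socs3, an inhibitor of the kinases, differed by -0.35 (adjusted p = 0.0417), a call that 11 of 17 alternatives lost.

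Downstream, the sensors Ddx58 and Ifih1, which recognise double-stranded RNA such as pIpC, rose by 0.66 and 0.75 (adjusted p = 0.00219 and 0.00504). Of the other effectors, Oas2, an enzyme that activates RNA decay, Lgals9, a secreted galectin, and Ifi203 of the Ifi200 family rose by 0.67, 0.70 and 0.69 (adjusted p = 0.0023, 0.00283 and 0.0031). Ifi203 has similar relatives, so its own share of the signal is uncertain.

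Markers of mature cell types gave 0 calls, while 9.71% of all genes rose and 7.69% fell. Tested were 7 macrophage and monocyte genes, 4 B cell, 7 T and NK cell, 5 neutrophil, 2 erythroid and 4 endothelial genes. Below the lower quartile in both groups were 4 T and NK genes, 2 B cell genes, 1 macrophage gene and 1 neutrophil gene. All 5 neutrophil genes were lower in DKO, from -0.02 for Ltf to -0.78 for S100a9 (adjusted p = 0.159). Groups did not overlap for Camp (-0.39, adjusted p = 0.101), Pecam1 (0.29, 0.115) and Cd3d (0.18, 0.223). Whether the share of these cell types differed was not tested. Mean log2 signals over these lists lay between 5.42 and 5.61 in DKO and 5.51 and 5.67 in WT for macrophages, and between 5.12 and 5.34 in DKO and 5.41 and 6.04 in WT for neutrophils. Of the stem and progenitor list, Kit and Meis1 rose and Mecom fell among 6 tested, with Kit, the receptor used in the sort, at 10.35, 10.72 and 10.38 in DKO, against 9.78, 9.63 and 9.85 in WT. The part of a shift among KSL subsets in the interferon gene differences was not tested.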

How the data were processed

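Per the labels, KSL RNA was amplified with a NuGEN kit and, after biotin labelling, measured on Affymetrix Mouse Gene 1.0 ST arrays. The deposited values are log2 signals per probe set. The sample titles name gene-level RMA and the series design text names preliminary MAS 5.0 normalisation. The array medians of 5.88 to 5.91 are those of a log2 scale equalised between arrays. Per the submitters' processing notes, the software was Affymetrix Expression Console 1.0. No source used here gives the background settings or a genome build. Precision is limited by the number of arrays.

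Of 35556 probe sets 21789 had 1 gene symbol in the platform annotation, 1621 several and 12146 none, which left 19938 genes. All were compared as DKO minus WT with limma 3.58.1 (lmFit, eBayes) in R 4.3.3, two-sided, with Benjamini-Hochberg adjustment over all genes and a threshold of 0.05. No filter on dim signals was applied. An exact permutation test of 3 against 3 arrays cannot go below 0.1 and was used only for pairs of related genes, chosen after their values were seen, so each gene's p comes from limma. Each limma p-value sets the group difference against the spread between arrays within groups, which eBayes draws toward that of all genes. As WT samples were pools and DKO pooling is not stated, the spread between single mice cannot be read from it. The script was tested on simulated data.

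The genes, lists and tests were chosen with earlier results of these data known. Values on every array are given for the genes that passed and for the receptor chains, transcription factors, Mx1 and the IFIT genes; pathway genes outside the list are named by the smallest p-values, and other named ones, including the marker genes, after their values were seen. Alternatives were other normalisations, filters, probe sets, variance models, thresholds, the replicate number as a block, removal of a loess trend over signal and gene span, and leaving out each array.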

Additional observations from a re-analysis of the deposited data

How the results depend on the processing

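In the settings that used the data differently, without leaving out arrays, the number of interferon response genes that rose stayed at 14 or 15 of those tested, at an adjusted p under 0.05. It was 11 at an adjusted p of 0.01 and 10 at a minimum of 1.5-fold, where 1 fell in each case. Leaving out 1 array gave 11 to 16 rises and 1 or 2 falls, and a median difference of 0.20 to 0.34. Of the 17 genes called, 12 passed in all alternative fits and 5 (Ifit1, Parp9, Ifitm1, Cmpk2 and Ifnar1) lost the call in at least 1. No called gene changed sign. Of the 19 others, Stat2 passed once, and 3 changed sign once: Isg20 at -0.00712 without DKO replicate 1 (highest 0.151 when 1 array was left out), Rtp4 at -0.00586 with the trend over signal and gene span removed, and Ifitm2 at -0.0691 with its most variable probe set. The causes were not tested.

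Same-numbered DKO and WT arrays did not deviate together (correlations -0.00874, -0.0954 and -0.0419), so the numbers are not taken as a pairing. With the replicate number as a block, 14 of the genes rose and 2 fell, Cmpk2 being lost (adjusted p = 0.055), and no other call on the list changed. In the other pathway genes 1 fell in place of 2 with the replicate block, quantile normalisation, median centring, cyclic loess or the mean of all probe sets. Their rises were 15 to 23 and their falls 1 to 2 without 1 array, 13 and 1 at an adjusted p of 0.01, and 12 and 1 at 1.5-fold. Over all genes 1936 rose and 1533 fell, with 2254 and 1121 under median centring, 1588 and 1546 under quantile normalisation, 1717 and 1479 under cyclic loess, and 1436 and 1473, more falls than rises, with the trend removed. The counts were 1058 and 588 at an adjusted p of 0.01, 873 and 458 at 1.5-fold, and 1250 to 1868 rises and 843 to 1388 falls when 1 array was left out. Without the dimmest 25% of genes 2032 rose and 1512 fell among 14953, and without the dimmest 50% 1995 rose and 1269 fell among 9969.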
